A study of Gelatoporia subvermispora and Trametes versicolor with 24 samples.

Results

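The response of the white-rot fungus Gelatoporia subvermispora to vanillate was measured by RNA sequencing in 6 flasks, 3 given vanillate and 3 given water. The flasks were chosen by the organism and treatment in the labels, and they account for 12 of the 24 libraries of a series that treated another fungus as well. All 6 held strain FP-105752 as a monokaryon, a mycelium with 1 haploid nuclear genotype. They stood in the dark at 28 °C without shaking, in a medium whose sugar was cellobiose at 5 g/L. On day 12 every flask, water controls included, received ascorbic acid at 5 mM and α-tocopherol, dissolved in ethanol, at 1 mM. The vanillate flasks were given vanillate 30 min later and again after a further 12 h, each time from a 100 mM stock made alkaline with sodium hydroxide, for a final 2 mM. The water flasks were given autoclaved water at both times, so vanillate and the sodium that came with it cannot be told apart. All mycelium was collected 12 h after the last addition, on day 13, and other times were not analysed here. The labels do not say whether the flasks came from separate seed cultures, so the p-values below measure the spread between these flasks, which may be technical.

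White-rot fungi break down lignin with secreted oxidative enzymes, and G. subvermispora is known for removing lignin from wood ahead of cellulose. Manganese peroxidases oxidise manganese to a diffusible oxidant, lignin peroxidases oxidise aromatic rings directly, and laccases are copper enzymes that oxidise phenols with oxygen. Vanillate carries a methoxy and a hydroxyl group on its aromatic ring and is released when lignin is oxidised. In the white-rot fungus Phanerochaete chrysosporium it is converted inside the cell to methoxyhydroquinone. The series concerns how white-rot fungi catabolise such methoxylated compounds.

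Each flask was sequenced as 2 libraries, which were summed. Libraries held 2865064 to 7160920 counts in genes, and flasks 6119420 to 12333618. The files list 12313 genes, of which 110 carry a symbol. The other 12203 have a locus identifier that the files do not pair with a name, and no function is given for them here. Levels are in CPM, counts brought to a common library size with TMM scaling for library composition. CPM is not corrected for gene length, so levels are mostly compared between flasks. Ranks, deciles, choices by CPM and shares within a family, given below, also depend on gene length. Reads set aside for low alignment quality were 4.04% to 5.57% of all reads in water flasks, and 12.3%, 5.98% and 6.74% in vanillate replicates 1, 2 and 3 (exact permutation p = 0.1, the smallest that 3 against 3 flasks allow). The part of this difference in the results was not tested, and the total counts of genes below are also given without vanillate replicate 1. The first principal component held 80.8% of the variance, with water flasks at -33.5 to -28.3 and vanillate flasks at 30.5 to 32.8.

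With TMM scaling, about as many transcripts were called higher as lower with vanillate, mostly by small amounts, while the strongest changes were rises. Of 10318 genes tested 2629 rose (25.5%) and 2675 fell (25.9%), together 51.4% (edgeR's quasi-likelihood test, Benjamini-Hochberg adjusted p under 0.05). Without vanillate replicate 1 the numbers were 2378 and 2375. The median change was 1.39-fold among genes that rose and 1.45-fold among those that fell. At the other end 48 genes rose at least 8-fold and 1 fell as far. No gene had 0 counts in all flasks of one group and at least 10 counts in every flask of the other.

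Genes called and changed at least 2-fold were 7.4% of those tested, with 363 higher (3.52%) and 401 lower (3.89%), or 381 and 409 without vanillate replicate 1. A stricter test asked whether a change exceeded 2-fold (edgeR's glmTreat, adjusted p under 0.05). It passed 2.68% of genes, 172 higher (1.67%) and 105 lower (1.02%), or 167 and 93 without vanillate replicate 1. The split between directions depended on the scaling. Scaled by library totals, 1788 genes rose and 3812 fell, 265 and 610 of them at least 2-fold, and 147 and 176 passed the stricter test. The median log2 fold change over all genes was -0.14 with library totals and -0.01 with TMM.

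**Figure D1:**
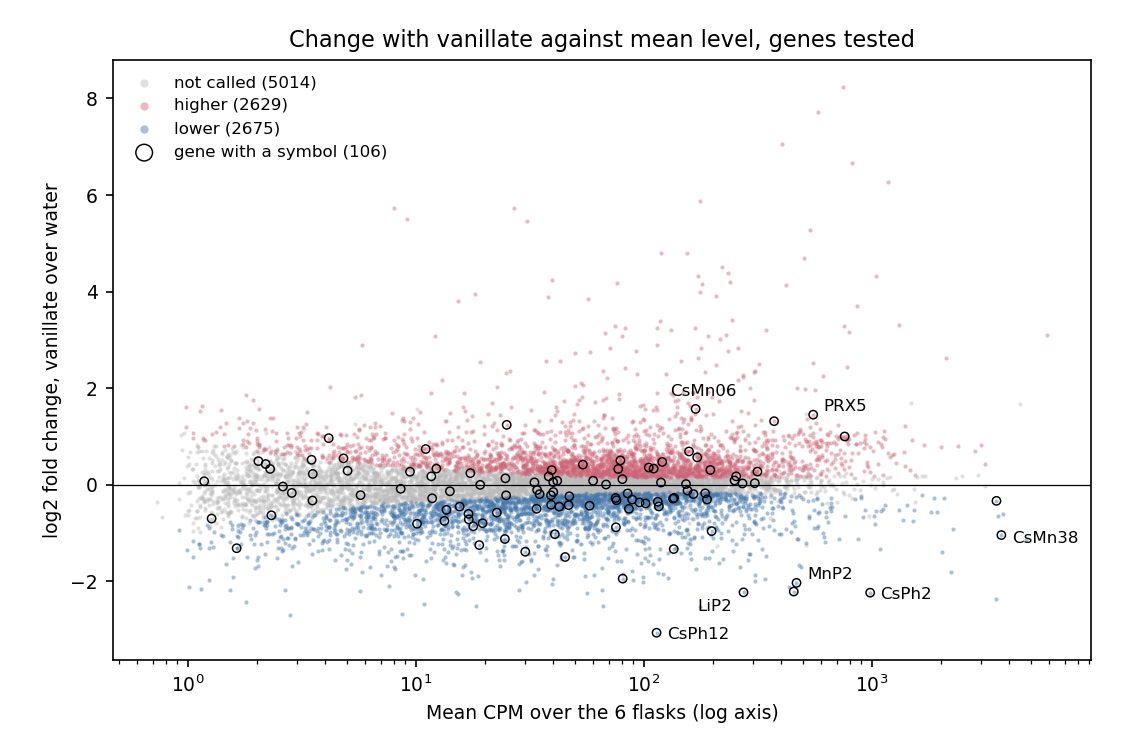
Log2 fold change of vanillate over water (y axis) against mean CPM over the 6 flasks (x axis, log scale) for the 10318 genes tested, with genes that rose in red, genes that fell in blue and tested symbols circled. The rises reach 8.23 and the falls -3.06.

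The flasks of a group lay close together. Among 6837 genes that averaged 20 CPM or more, the highest flask of a group was at a median of 1.12 times the lowest in water and 1.11 times with vanillate. Only 30 of these genes spread at least 2-fold among the water flasks, and 12 among the vanillate flasks. The groups' flasks did not overlap in 59.2% of all genes tested. Fewer genes made up 50% of all gene counts with vanillate, 876 to 896 against 976 to 1015 in water (exact permutation p = 0.1). The 10 genes with the highest mean CPM over all flasks, the same genes in each flask, were also summed. Their part of gene counts averaged 4.10% ± 0.506 for water and 3.76% ± 0.42 for vanillate (p = 0.5 by exact permutation). Of all reads these 10 genes held 3.21% ± 0.318 and 2.78% ± 0.172, without overlap (p = 0.1 by exact permutation). They included genes that rose and genes that fell with vanillate, so gains and losses could offset each other. The part held by each flask's own top genes was not measured. The genes called at least 2-fold higher went from 3.04% ± 0.0472 of all gene counts to 10.3% ± 0.54 (SD, n = 3). Those called at least 2-fold lower went from 6.70% ± 0.73 to 2.28% ± 0.146. Both shares had to move, since the genes were chosen for their change.

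Genes with a higher mean level over all 6 flasks were called higher more often. Tested genes were divided into deciles by mean CPM over all 6 flasks. Vanillate flasks enter that mean, so a rise moves a gene toward a higher decile and a fall toward a lower one. The part of this in the trend was not tested, and deciles by water flasks alone were not made. In the lowest, up to 3.72 CPM, 8.82% rose and 14.2% fell. In the highest, from 215.6 CPM, 44.5% rose and 22.3% fell. The share that rose was larger in each decile than in the one below it, while the share that fell was highest in decile 4, at 33.2%. The median SE of the log2 fold change was 0.29 in the lowest decile and 0.07 in the highest. With library totals 365 genes of the highest decile rose and 327 fell, against 459 and 230 with TMM.

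**Figure D2:**
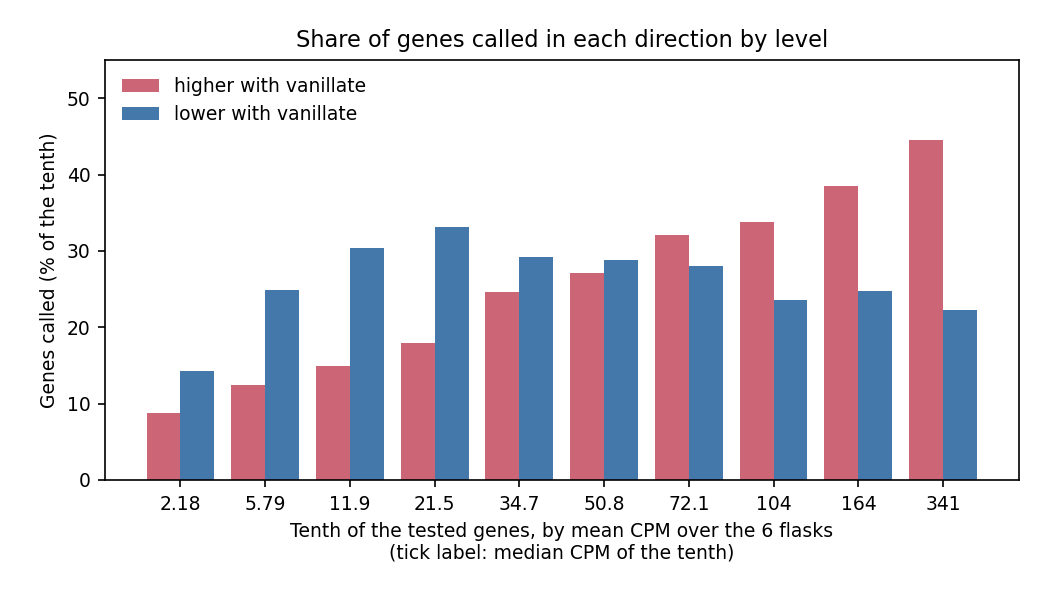
Percent of genes in each decile of mean CPM (x axis) that rose (red) or fell (blue) with vanillate. The share that rose goes from 8.82% in the lowest decile to 44.5% in the highest, and the share that fell is greatest, 33.2%, in decile 4.

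Among genes with an identifier only, which are nearly all genes in the files, CERSUDRAFT_157295 stood at 4.61, 4.87 and 5.26 CPM in the water flasks and at 1483, 1418 and 1549.65 CPM in the vanillate flasks. It was low in every water flask and high in every vanillate flask, a log2 fold change of 8.23 with an SE of 0.10 (adjusted p = 1e-15). CERSUDRAFT_119302 had the largest gain in CPM of the genes called, from 1249.5, 1185 and 1207 CPM to 9528, 11497.5 and 10409 CPM. Its log2 fold change was 3.11 with an SE of 0.09 (adjusted p = 8.14e-12). By counts it ranked 45, 49 and 49 among all genes in the water flasks and 2, 1 and 1 in the vanillate flasks, where it held 0.907% to 1.09% of gene counts. The 12 genes with the greatest rises, among those with at least 5 CPM in the higher group and no overlap of flasks, had log2 fold changes of 4.80 to 8.23, and none carried a symbol.

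The greatest losses included genes with symbols. Of the 12 genes with the greatest falls by the same rule, 9 were identifiers and the others were CsPh12, CsPh2 and LiP2, with log2 fold changes of -3.06 to -2.21. CERSUDRAFT_80123 fell furthest among the identifiers, from 11.1, 16.5 and 18.0 CPM to 1.37, 2.98 and 2.30 CPM, a log2 fold change of -2.68 with an SE of 0.25 (adjusted p = 2.03e-06). CERSUDRAFT_87995 lost the most CPM of the genes called, from 5455, 5604 and 6450.1 CPM to 1132, 1042 and 1246 CPM, a log2 fold change of -2.36 with an SE of 0.10 (adjusted p = 1.9e-10). All vanillate flasks were below all water flasks for both loci, where groups did not overlap in 59.2% of all genes.

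A locus among the 5 genes with the highest mean CPM was not called. It stood at 1774, 1520.3 and 3103 CPM in water and 11712, 4049.85 and 4663 CPM with vanillate, so the groups did not overlap but vanillate replicate 1 stood far above the rest. Its log2 fold change was 1.67 with an SE of 0.58 (adjusted p = 0.0743), and 1.03 (adjusted p = 0.0797) without that flask.

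Genes with a symbol were called lower more often than higher. Of 106 tested, 18 rose (17%, against 25.5% of all genes) and 45 fell (42.5%, against 25.9%). Together 59.4% were called, against 51.4% of all genes. Their median log2 fold change was -0.18, against -0.01 over all genes. Of the calls 4 rises and 14 falls were at least 2-fold, 3 rises and 8 falls passed the test against 2-fold, and 33 were under 1.5-fold. Over all genes tested 3.52% rose and 3.89% fell at least 2-fold, and 1.67% and 1.02% passed that test. The 4 symbols with too few counts to test were CsMn84 with 45 counts over the 6 flasks, CsPh8 with 48, LiP1 with 13 and sym1 with 0. Several symbols belong to families of similar genes, and how the authors' counting treated reads shared by near-identical copies was not tested.

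**Figure D3:**
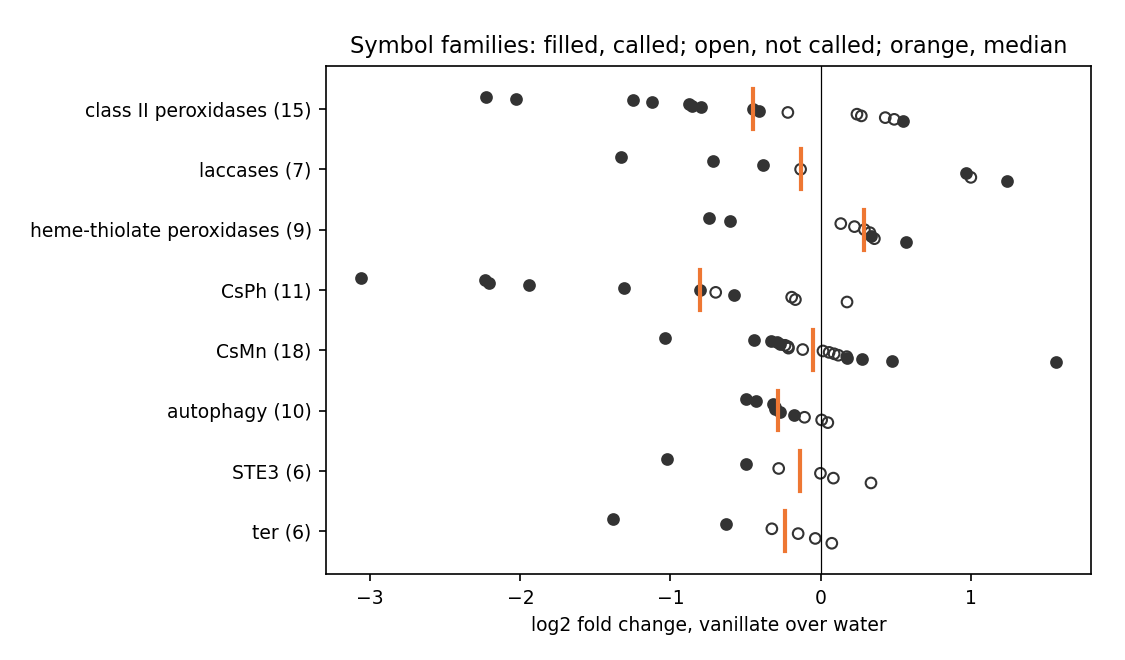
Log2 fold change of vanillate over water (x axis) for each tested member of the symbol families (y axis), with called genes filled, others open and the family median marked. CsPh has a median of -0.81 and the heme-thiolate peroxidases a median of 0.29.

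The class II peroxidases, the secreted heme enzymes that include manganese and lignin peroxidases, were called lower more often than higher. Of 15 tested 9 fell, 1 rose and 5 did not pass, so 60% were called lower against 25.9% of all genes and 6.67% higher against 25.5%. The median log2 fold change was -0.45. MnP2, by its symbol a manganese peroxidase, stood at 772, 667 and 811 CPM in water and 192, 176 and 184 CPM with vanillate. LiP2, by its symbol a lignin peroxidase, stood at 456, 424 and 471.5 CPM and then at 102, 90.2 and 97.04 CPM. Every vanillate flask was far below every water flask in both. The log2 fold change of MnP2 was -2.03 with an SE of 0.08 (adjusted p = 1.81e-10). That of LiP2 was -2.23 with an SE of 0.07 (adjusted p = 2.1e-11). Of the family only MnP2 and LiP2 passed the test against 2-fold (glmTreat adjusted p = 5.46e-08 and 2.48e-09). Over all genes 1.02% passed that test as lower.

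Summed over all 16 members, the family took 1638, 1497 and 1652 CPM, here scaled by library totals alone, in the water flasks, against 484, 454 and 488 under vanillate. MnP2 and LiP2 held 77.0% to 80.0% of these in water and 55.6% to 57.9% with vanillate. The other 14 members together went from 353, 344 and 330.0 to 204, 201 and 216 CPM on that scale. No vanillate flask reached a water flask in either sum. The family's part of all gene counts averaged 0.16% ± 0.0086 for water and 0.0475% ± 0.00183 for vanillate (SD, n = 3, exact permutation p = 0.1).

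**Figure D4:**
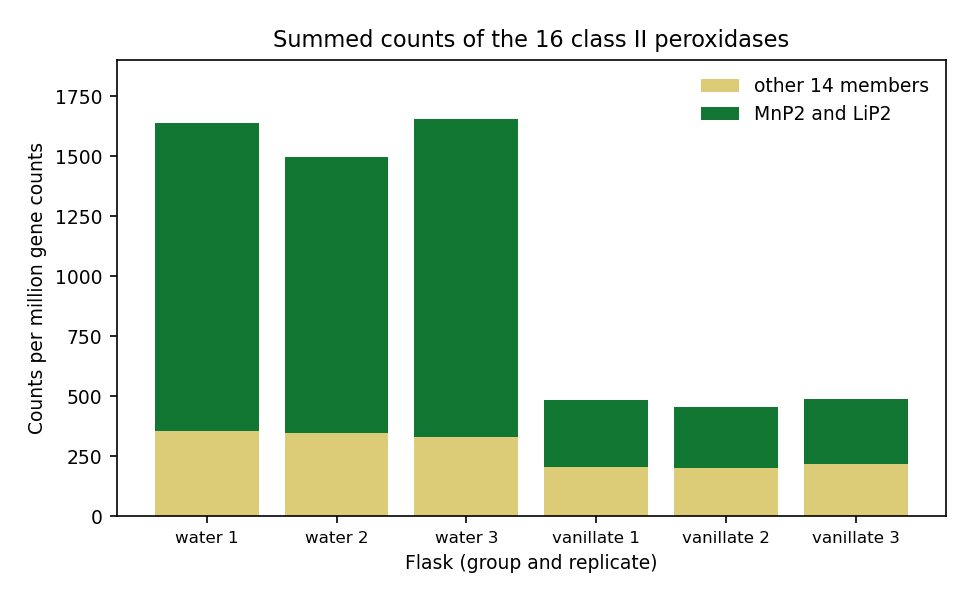
Class II peroxidase counts in CPM scaled by library totals (y axis) in each of the 6 flasks, with MnP2 and LiP2 together and the other 14 members stacked. The sums are 1497 to 1652 in water flasks and 454 to 488 in vanillate flasks.

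Of the other manganese peroxidases 6 fell, each by less, where 25.9% of all genes fell. MnP3, MnP7, MnP8, MnP11 and MnP13 were not called. MnP10 went from 29.02, 24.3 and 27.2 CPM to 9.27, 12.8 and 11.2 CPM, a log2 fold change of -1.247 with an SE of 0.13 (adjusted p = 2.32e-06). MnP6 went from 37.5, 31.8 and 31.4 CPM to 16.8, 12.9 and 17.01 CPM, a log2 fold change of -1.12 with an SE of 0.12 (adjusted p = 4.75e-06). The groups did not overlap, as in 59.2% of all genes, but neither change was shown to exceed 2-fold. MnP1 fell by 0.88 on the log2 scale, MnP12 by 0.86, MnP9 by 0.79, MnP5 by 0.45 and GP, by its symbol a generic peroxidase, by 0.41. MnP4 was the member that rose, from 4.27, 3.65 and 3.58 CPM to 7.38, 5.20 and 4.80 CPM (log2 fold change 0.55, SE 0.21, adjusted p = 0.0378). That call was lost without water replicate 2 (adjusted p = 0.0959) or 3 (0.0982), without vanillate replicate 1 (0.134) or 2 (0.0557), and with library totals (0.0942).

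Genes with the symbol CsPh had the lowest median of the families, -0.81, and no function is given for them in the sources used here. Of 11 tested 7 fell (63.6%, against 25.9% of all genes), 4 did not pass and none rose. The test against 2-fold passed 4 of the falls, where it passed 1.02% of all genes as lower. CsPh12 stood at 221, 197 and 191 CPM in water and 26.3, 23.3 and 23.8 CPM with vanillate. It was the gene with the greatest fall of all those tested, a log2 fold change of -3.06 with an SE of 0.08 (adjusted p = 2.22e-12). CsPh2 went from 1474, 1670.3 and 1717 CPM to 329, 356 and 348 CPM, a log2 fold change of -2.23 with an SE of 0.08 (adjusted p = 5.24e-11). The vanillate flasks of both lay within a narrow band far below the water flasks.

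CsPh3 fell by 2.21 and CsPh5 by 1.94 on the log2 scale, CsPh9 by 0.81 and CsPh10 by 0.57. CsPh1 went from 1.24, 2.99 and 2.88 CPM to 0.687, 1.19 and 0.835 CPM, a log2 fold change of -1.31 with an SE of 0.38 (adjusted p = 0.0103). CsPh4 was not called, at 1.46, 1.33 and 1.59 CPM in water and 2.23, 0.596 and 0.417 CPM with vanillate (adjusted p = 0.245), with vanillate replicate 1 above all others. Without that flask it was called, with a log2 fold change of -1.48 (adjusted p = 0.0115). The family's part of all gene counts averaged 0.292% ± 0.0259 for water and 0.0612% ± 0.00201 for vanillate (SD, n = 3, exact permutation p = 0.1).

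**Figure D5:**
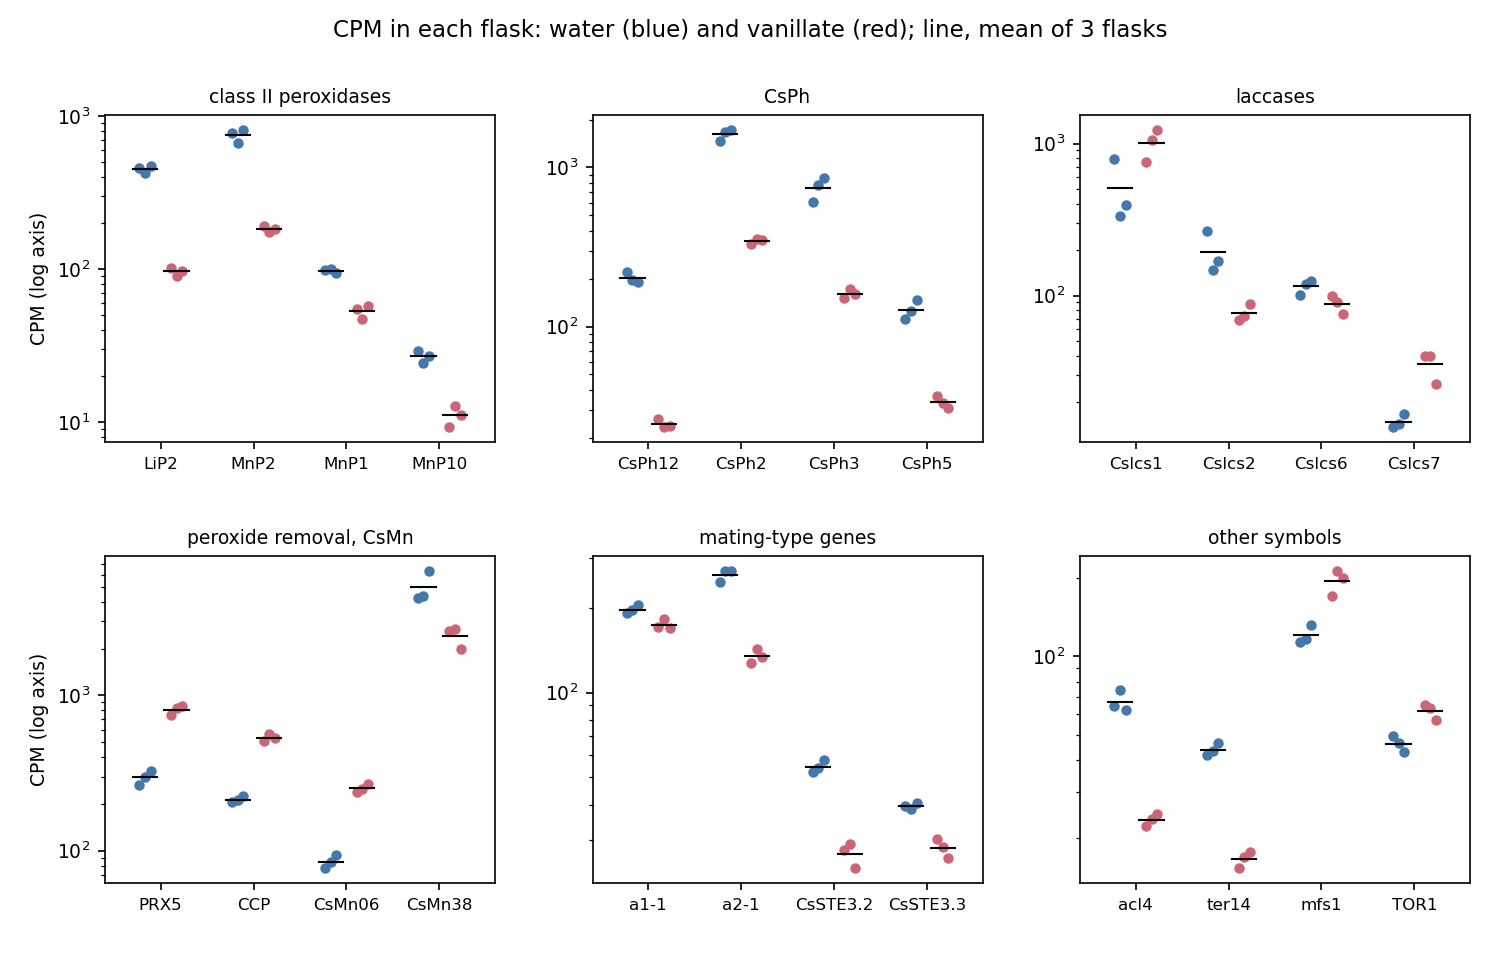
CPM of 24 genes with a symbol in each of the 3 water and 3 vanillate flasks (y axes, log scale), 4 genes to a panel. CsPh12 lies at 191 to 221 CPM in water and 23.3 to 26.3 CPM with vanillate, while PRX5 and CCP lie higher in every vanillate flask.

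Of 7 laccases 2 rose (28.6%, against 25.5% of all genes), 3 fell (42.9%, against 25.9%) and 2 were not called. The median log2 fold change was -0.13. Their part of all gene counts averaged 0.0907% ± 0.0309 for water and 0.119% ± 0.023 for vanillate, with overlap (SD, n = 3, exact permutation p = 0.3). Cslcs7 stood at 13.6, 14.3 and 16.5 CPM in water and 40.0, 39.8 and 25.98 CPM with vanillate, a log2 fold change of 1.24 with an SE of 0.17 (adjusted p = 0.000126). Cslcs3 rose by 0.97 on the log2 scale at low levels, from 2.77 ± 0.266 to 5.52 ± 0.65 CPM (SD, n = 3). Neither group reached into the other in these genes, as in 59.2% of all genes.

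Cslcs2 fell, from 266, 146 and 169 CPM to 68.5, 73.8 and 87.7 CPM, a log2 fold change of -1.33 with an SE of 0.28 (adjusted p = 0.0143). Water replicate 1 was highest, and the call was lost without vanillate replicate 2 (adjusted p = 0.0524). Cslcs5 fell by 0.72 and Cslcs6 by 0.39. Cslcs1 was not called, at 789.7, 334 and 397 CPM in water and 751, 1061 and 1227 CPM with vanillate (log2 fold change 1.00, SE 0.43, adjusted p = 0.121). Its water replicate 1 lay within the vanillate range, and without that flask it was called higher, with a log2 fold change of 1.47 (adjusted p = 0.0116).

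Of the other multicopper oxidases, Csfet3, by its symbol a ferroxidase of iron uptake, rose from 170.4, 156 and 198 CPM to 214, 223 and 212 CPM. The change was small, 0.31 on the log2 scale with an SE of 0.08 (adjusted p = 0.00526), and was not called with library totals (adjusted p = 0.0552). Csmco1 was not called at 2.89 ± 0.789 and 4.09 ± 0.447 CPM (SD, n = 3, edgeR adjusted p = 0.0751), but was called without water replicate 1 (adjusted p = 0.0413).

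Both genes whose symbols name enzymes that remove peroxides rose, as did 25.5% of all genes. PRX5, a peroxiredoxin by its symbol, stood at 264, 296 and 327 CPM in water and 746, 832 and 850.4 CPM with vanillate, a log2 fold change of 1.45 with an SE of 0.09 (adjusted p = 1.02e-08). CCP, by its symbol cytochrome c peroxidase, stood at 206, 211 and 223 CPM and then at 505, 560.0 and 529 CPM, a log2 fold change of 1.32 with an SE of 0.07 (adjusted p = 2.78e-09). Every vanillate flask was above every water flask, where groups did not overlap in 59.2% of all genes. Both genes passed the test against 2-fold (glmTreat adjusted p = 0.000537 and 0.00168), which passed 1.67% of all genes as higher.

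The heme-thiolate peroxidases, enzymes that insert oxygen from peroxide into organic compounds, gave 2 rises, 2 falls and 5 genes not called. The share called, 44.4%, was below the 51.4% of all genes. It was 22.2% in each direction, against 25.5% higher and 25.9% lower over all genes. HTP7 went from 166, 123 and 125 CPM to 225, 207 and 183 CPM, a log2 fold change of 0.57 with an SE of 0.13 (adjusted p = 0.00558). HTP4 went from 15.9, 19.4 and 14.7 CPM to 11.3, 9.88 and 8.87 CPM, a log2 fold change of -0.75 with an SE of 0.15 (adjusted p = 0.000703), and HTP3 fell by 0.60. These 3 genes showed no overlap between groups, as did 59.2% of all genes.

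HTP1 rose by 0.34 with overlapping flasks, from 89.4, 89.7 and 114 CPM to 109.9, 129.7 and 129 CPM (adjusted p = 0.0169). The call was lost without water replicate 1 (adjusted p = 0.0535) or 2 (0.0635), without vanillate replicate 2 (0.0680) or 3 (0.0668), and with library totals (0.0796). HTP5 was not called (log2 fold change 0.36, adjusted p = 0.111) but was called without water replicate 3 (0.54, adjusted p = 0.000332).

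The symbols a1-1 and a2-1 name homeodomain proteins of a mating-type locus in the mushroom Coprinopsis, and both genes fell, a2-1 by far more. The a2-1 transcript stood at 247, 269 and 269 CPM in water and 127, 142 and 134 CPM with vanillate, a log2 fold change of -0.96 with an SE of 0.07 (adjusted p = 5.77e-08). The a1-1 transcript stood at 191, 196 and 205 CPM and then at 171, 183 and 169.6 CPM, a log2 fold change of -0.18 with an SE of 0.06 (adjusted p = 0.0305). Groups did not overlap in either gene, as in 59.2% of all genes.

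The a1-1 call was lost without water replicate 2 (adjusted p = 0.0713) or 3 (0.0820) and without vanillate replicate 1 (0.0960) or 3 (0.0982). The ratio of a2-1 to a1-1 was 1.33 ± 0.043 in water and 0.772 ± 0.0232 with vanillate (SD, n = 3, exact permutation p = 0.1), a ratio chosen after the values were seen. Of the genes that adjoin this locus in many basidiomycetes, mip, a mitochondrial peptidase by its symbol, rose by 0.33 on the log2 scale with an SE of 0.07 (adjusted p = 0.00143). The other, beta-fg, was not called (log2 fold change 0.04, adjusted p = 0.648).

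Of 6 genes named for STE3, the pheromone receptor of yeast, 2 fell (33.3%, against 25.9% of all genes), 4 were not called and none rose. In either direction 51.4% of all genes were called. CsSTE3.2 went from 52.2, 53.8 and 57.6 CPM to 27.6, 29.1 and 23.8 CPM, a log2 fold change of -1.02 with an SE of 0.09 (adjusted p = 6.56e-07). CsSTE3.3 fell by 0.50 with an SE of 0.09 (adjusted p = 0.000334). CsSTE3.5, at 0.34 (adjusted p = 0.059), was called higher without water replicate 1 (adjusted p = 0.0295) or vanillate replicate 3 (0.0294). The kinase gene cla4 fell by 0.19 with an SE of 0.06 (adjusted p = 0.0189), a call lost without water replicate 2 (adjusted p = 0.0739) or vanillate replicate 2 (0.0606) or 3 (0.0688).

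Most of the autophagy genes, whose roles are known from Saccharomyces cerevisiae, fell by small amounts. Of 10 tested 7 fell (70%, against 25.9% of all genes), 3 did not pass and none rose. Their median log2 fold change was -0.29. No call reached 2-fold, where 3.89% of all genes were called at least 2-fold lower. ATG15B, one of a pair named for the vacuolar lipase, went from 93.7, 96.4 and 112 CPM to 67.8, 69.4 and 76.6 CPM, a log2 fold change of -0.50 with an SE of 0.08 (adjusted p = 0.000138). ATG15A fell by 0.43 with an SE of 0.07 (adjusted p = 0.000172). The groups did not overlap in either of these genes, as in 59.2% of all genes.

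ATG4, named for the protease that processes Atg8, fell by 0.32, ATG27 by 0.31, ATG18 by 0.30 and ATG3, named for the enzyme that joins Atg8 to lipid, by 0.27. ATG16 fell by 0.18 (adjusted p = 0.0306), a call lost without water replicate 2 (adjusted p = 0.0970) or 3 (0.0842) and without vanillate replicate 1 (0.0882) or 3 (0.0819). The genes TOR1 and TOR2, named for the kinase that restrains autophagy in yeast, changed in opposite directions. TOR1 rose from 49.4, 46.3 and 42.9 CPM to 65.2, 63.5 and 56.8 CPM (log2 fold change 0.42, SE 0.08, adjusted p = 0.000716). TOR2 fell from 139, 121 and 127 CPM to 104, 101 and 99.0 CPM (log2 fold change -0.35, SE 0.07, adjusted p = 0.000568). The ratio of TOR2 to TOR1, chosen after the values were seen, was 2.79 ± 0.172 in water and 1.64 ± 0.0896 with vanillate (SD, n = 3, exact permutation p = 0.1).

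The genes mfs1 to mfs4, by their symbols transporters of the major facilitator superfamily, were all called, where 51.4% of all genes were. Expression of mfs1 rose from 113, 117 and 132 CPM to 171, 213 and 200.1 CPM, a log2 fold change of 0.69 with an SE of 0.09 (adjusted p = 1.79e-05). That of mfs3 rose by 0.74, while mfs2 fell by 0.42 and mfs4 by 0.36. The groups did not overlap in these 4 genes, as in 59.2% of all genes. Of the nps genes, named for nonribosomal peptide synthetases, nps1 fell by 0.45 with an SE of 0.08 (adjusted p = 0.000519) and nps2 rose by 0.31 with an SE of 0.10 (adjusted p = 0.0192). The nps2 call was lost without water replicate 2 (adjusted p = 0.0996), vanillate replicate 1 (0.0643) or vanillate replicate 3 (0.0523), and with library totals (0.126).

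The symbols acl, ter, pab1 and CsMn are given no function in the sources used here. The gene acl4 went from 64.2, 74.0 and 62.0 CPM to 22.1, 23.7 and 24.8 CPM, a log2 fold change of -1.49 with an SE of 0.09 (adjusted p = 1.63e-08), and ter14 from 41.6, 43.0 and 46.6 CPM to 15.3, 16.95 and 17.6 CPM, a log2 fold change of -1.39 with an SE of 0.10 (adjusted p = 5.12e-08). Both passed the test against 2-fold, which 1.02% of all genes passed as lower. Their groups did not overlap, as in 59.2% of all genes. The gene acl3 was not called (log2 fold change 0.03, adjusted p = 0.711). Of 6 ter genes 2 fell (33.3%, against 25.9% of all genes), but the call of ter9 (log2 fold change -0.63, adjusted p = 0.0456) was lost without any one flask, with adjusted p = 0.0563 without water replicate 1, 0.0569 without 2 and 0.160 without 3, and 0.104, 0.125 and 0.0578 without vanillate replicates 1, 2 and 3. The gene pab1 rose by 0.51 with an SE of 0.08 (adjusted p = 9.72e-05).

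Of 18 CsMn genes tested 4 rose (22.2%), 5 fell (27.8%) and 9 were not called, shares near the 25.5% and 25.9% of all genes. The median log2 fold change was -0.05. The family's part of all gene counts averaged 1.12% ± 0.105 for water and 0.731% ± 0.0498 for vanillate, without overlap (SD, n = 3, exact permutation p = 0.1). CsMn06 went from 76.8, 84.7 and 93.2 CPM to 238, 250.4 and 269 CPM, a log2 fold change of 1.57 with an SE of 0.08 (adjusted p = 1.79e-09), the largest rise among genes with a symbol. CsMn38 went from 4224, 4391 and 6302 CPM to 2601, 2661 and 1995 CPM, a log2 fold change of -1.04 with an SE of 0.18 (adjusted p = 0.00216). The groups did not overlap in either gene, as in 59.2% of all genes, and water replicate 3 was highest for CsMn38.

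The other CsMn calls were smaller. CsMn41 rose by 0.47 and CsMn04 by 0.27, the latter not called with library totals (adjusted p = 0.101). CsMn01 fell by 0.45, CsMn26 by 0.33, CsMn34 by 0.29 and CsMn33 by 0.27. CsMn27, at 0.18 (adjusted p = 0.0486), lost its call without water replicate 1 (adjusted p = 0.0942) or 2 (0.119). The call was also lost without vanillate replicate 1 (0.121) or 2 (0.232), and with library totals (0.578).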

How the data were processed

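The authors deposited raw read counts per gene for each library, made from total RNA with a stranded kit and single reads of 150 bases, per the labels' protocols. FastQC, STAR and HTSeq are the tools listed, per the submitters' processing notes; for their versions, the build, the annotation and the strand setting, nothing is given in the sources used here. The 5 closing rows of each file, which name no gene, entered neither library sizes nor tests, and 70.0% to 79.9% of all reads fell in genes. The 2 libraries of a flask differed by a chi-square per degree of freedom of 1.01 to 1.06. The chi-square test gave p under 0.05 in 5 of these 6 pairs. Libraries of different flasks of a group gave 2.88 to 8.65, with p under 0.05 in all 24 pairs. The 2 libraries of a flask were summed and counted as 1 sample.

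Genes were kept by filterByExpr (minimum count 10, minimum total 15) and tested with edgeR 4.0.16 in R 4.3.3 (TMM, robust quasi-likelihood F test, glmTreat against 2-fold), with Benjamini-Hochberg adjustment over all 10318 genes kept. SEs were taken from the F statistic. Means are given ± SD over flasks, and permutation tests were exact and two-sided. The script was tested on simulated data. Alternatives were other scalings, filters, DESeq2 1.42.0, single libraries, a replicate block and leaving out each flask.

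The members and gene lists were chosen with earlier results of these data known. The naming rule took the 12 greatest rises and falls, the 6 greatest gains and losses in CPM, the 5 genes with most CPM, and, for each list with 5 or more tested genes, up to 2 that rose and 2 that fell. Since the files pair no identifier with a name, only the first identifier by fold and by CPM in each direction is printed, and lists by product could not be used. Symbols beyond the rule were chosen after their values were seen.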

Additional observations from a re-analysis of the deposited data

How the results depend on the processing

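Of the 764 genes called at least 2-fold, 625 to 763 were also called at least 2-fold under each of the 14 alternatives, and 0 changed sign. Leaving out single flasks gave 2240 to 2657 genes higher and 2234 to 2753 lower, 349 to 386 and 378 to 484 at least 2-fold, and 150 to 171 and 79 to 149 past the test against 2-fold. Library totals gave 610 genes at least 2-fold lower and 176 past the test against 2-fold lower. They gave 0 class II peroxidases, 1 heme-thiolate peroxidase and 2 CsMn genes higher, and 57 higher genes in the lowest decile. Median log2 fold changes were then -0.14 for all genes, -0.58 for class II peroxidases, -0.26 for laccases, 0.17 for heme-thiolate peroxidases, -0.18 for CsMn, -0.41 for autophagy, -0.27 for STE3 and -0.30 for all symbols. The median of all genes was -0.0052 with DESeq2 size factors and -0.0061 with DESeq2's Wald test. That test gave 0 class II peroxidases higher, and 41 higher and 78 lower in the lowest decile. A filter at 5 CPM left 0 class II peroxidases and 1 laccase higher and 0 calls in the lowest decile, with medians of -0.83 for class II peroxidases, -0.26 for laccases, -1.38 for CsPh, -0.77 for ter and -0.21 for all symbols; fewer genes were tested there. No filter gave a CsMn median of 0.0149. The first library alone gave 0 class II peroxidases higher, 21 higher and 42 lower in the lowest decile, and medians of 0.0248 for laccases and -0.24 for autophagy. The second library alone gave 1 STE3 gene higher, 45 higher and 78 lower in the lowest decile, and medians of -0.55, -0.25 and 0.15 for class II, laccases and heme-thiolate peroxidases. The ter genes had 1 fall with DESeq2's test, no filter, the 5 CPM filter, either library alone and the replicate block.

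Without single flasks the class II peroxidases had 0 to 1 higher, the heme-thiolate peroxidases 1 to 3, STE3 0 to 1, and ter 1 to 1 lower. The lowest decile had 51 to 75 higher and 99 to 154 lower. Medians ran from -0.0140 to -0.0085 for all genes, -0.53 to -0.43 for class II, -0.17 to -0.10 for laccases, 0.20 to 0.30 for heme-thiolate peroxidases, -1.07 to -0.70 for CsPh, -0.0577 to 0.0358 for CsMn, -0.29 to -0.25 for autophagy, -0.20 to -0.0407 for STE3, -0.39 to -0.19 for ter and -0.19 to -0.15 for all symbols. Of genes not called, acl3 changed sign with library totals (-0.10), and beta-fg with library totals (-0.0908) and the first library (-0.0210). The cause of these differences was not tested.

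Replicate numbers did not pair the flasks: deviations of same-numbered flasks correlated at -0.03, 0.03 and -0.14. With the replicate block 2522 genes rose and 2553 fell, and among named genes a1-1 (adjusted p = 0.0515), CsMn27 (0.0791) and ter9 (0.0566) were not called.

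The limits are 3 flasks a group, 1 time and 1 strain. The median SE of a log2 fold change was 0.29 in the lowest decile, and unnamed loci could not be grouped by function.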
